A study of Homo sapiens with 4 samples.

Results

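The genes described are CXADR and 8 further genes of the tight junction and of related adhesion receptors: F11R, JAM3, TJP1, OCLN, CLDN1, CLDN11, CLDN12 and CLMP. They were taken by gene name from the U251 count table, and all 9 were found among its 15575 genes. CXADR was picked because it was higher in both PRMT3-KD libraries, so its change is given as a description with no test, while the other 8 were picked as tight junction or related genes. The transcriptome was measured by RNA-seq in U251 cells, an established human glioblastoma (GBM) cell line, to ask which genes change when the arginine methyltransferase PRMT3 is depleted. The 2 Ctrl libraries came from U251 cells with a lentiviral control shRNA (pGreen in the library titles), and the 2 PRMT3-KD libraries from U251 cells with a lentiviral shRNA to PRMT3, both at 72 h after transduction by the study's methods. Both groups therefore carry a lentivirus, the line is a single one, and the sources used here do not name the PRMT3 hairpin of these libraries.

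Tight junctions seal the space between neighbouring epithelial or endothelial cells. Claudins and occludin (OCLN) are the membrane proteins of the strands, the JAM receptors F11R (JAM-A) and JAM3 (JAM-C) sit beside them, and TJP1 (ZO-1) is the scaffold that ties them to actin. CXADR is the coxsackievirus and adenovirus receptor, an immunoglobulin-like adhesion protein of the same family as CLMP, and in the brain it is known as an adhesion molecule of developing neural cells and as the entry receptor for many adenoviral vectors. CLDN11 is best known from the myelin of oligodendrocytes.

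PRMT3, the targeted gene, was counted 535 times in each Ctrl library, 77 times in PRMT3-KD 1 and 45 times in PRMT3-KD 2, so its values went with the labels. Total counts ran from 24804250 to 29756313 per library. The Ctrl libraries differed little beyond counting error, with a chi-square of 1.42 per gene where counting error alone gives 1, whereas the same measure was 63.6 between the PRMT3-KD libraries. Nothing in the labels says that the 2 libraries of a group came from separate cultures, so the p-values measure only the spread between libraries, which may be technical. Of the markers of a glial line, SOX2 had 3359 to 4781 counts per library and VIM, NES and CD44 had more. S100B had 49 to 80 and CHI3L1 had 0 to 2. Of 7 glial markers tested, SOX9 alone passed the threshold used below, as lower (6772, 6703, 3704 and 4666 counts in Ctrl 1, Ctrl 2, PRMT3-KD 1 and PRMT3-KD 2, log2 fold change -0.65, adjusted p = 0.0215, edgeR). Of 8 epithelial markers, 6 were in the table and EPCAM and CLDN3 were not listed. Their summed CPM was 9.89, 9.998, 9.33 and 13.6 in the same order. CLDN4, itself a claudin, had the most counts among them (177, 148, 215 and 228). KRT14 had 84, 102, 10 and 132 counts, and CDH1, KRT5, KRT19 and CLDN7 had 17 or fewer per library. Of 5 leukocyte markers, 2 were in the table, with a summed CPM of 0.433 to 0.614, and CD14 had 12, 11, 6 and 6 counts. The endothelial markers PECAM1, CLDN5 and TEK were not listed. The endothelial marker CDH5 was listed at 140, 146, 129 and 722 counts in Ctrl 1, Ctrl 2, PRMT3-KD 1 and PRMT3-KD 2. The part of these markers in the results below was not tested. The summed CPM of the endothelial list was 27.5 and 29.6 in Ctrl and 19.6 and 37.9 in PRMT3-KD, and of its 3 genes tested out of 6, only KDR passed, as lower. GFAP, the astrocyte filament protein, had 363, 392, 32 and 153 counts in the same order, with an adjusted p of 0.0958 (edgeR).

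CXADR (ENSG00000154639, chr21:18885361-18965897 of GRCh37, plus strand, protein coding) has processed pseudogenes whose sequence is close to its coding sequence. These copies matter for the counts, because reads from the coding part can be assigned to either. Of the 1095 coding bases of CXADR, 99.3% aligned to CXADRP2 (ENSG00000258712, chr15:22015703-22016791, minus strand) at 96.2% identity, with 39 mismatches. The coding part is 18.2% of the 6021 annotated exon bases of CXADR, so most of its exon sequence lies outside these copies. CXADRP2 was listed at 28 and 12 counts in Ctrl and at 4 and 28 counts in PRMT3-KD libraries, which is 0.306 to 7.43 counts for every 100 counts of CXADR. CXADRP1 (95.1% identity) and CXADRP3 (95.8% identity) were not listed.

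CXADR had 377 counts in Ctrl 1, 356 in Ctrl 2, 1306 in PRMT3-KD 1 and 1519 in PRMT3-KD 2. On the CPM scale (counts scaled to a common library total with TMM factors) these were 13.6, 12.9, 51.4 and 53.5. Both PRMT3-KD libraries lay far above both Ctrl libraries, and the groups did not overlap. The Ctrl mean was 13.3 ± 0.469 CPM and the PRMT3-KD mean was 52.4 ± 1.46 CPM (mean ± SD of 2 libraries per group). The log2 fold change was 1.98, or 3.95-fold, and this is the difference for which the gene was picked. The PRMT3-KD libraries were 3.87 and 4.03 times the Ctrl mean. They differed from each other by 0.057 on the log2 scale, and since CXADR was picked for a rise seen in both, this closeness also belongs to its choice. By log2 fold change, 74 genes ranked above CXADR, of which 6 had a mean CPM at least as high as its own.

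**Figure D1:**
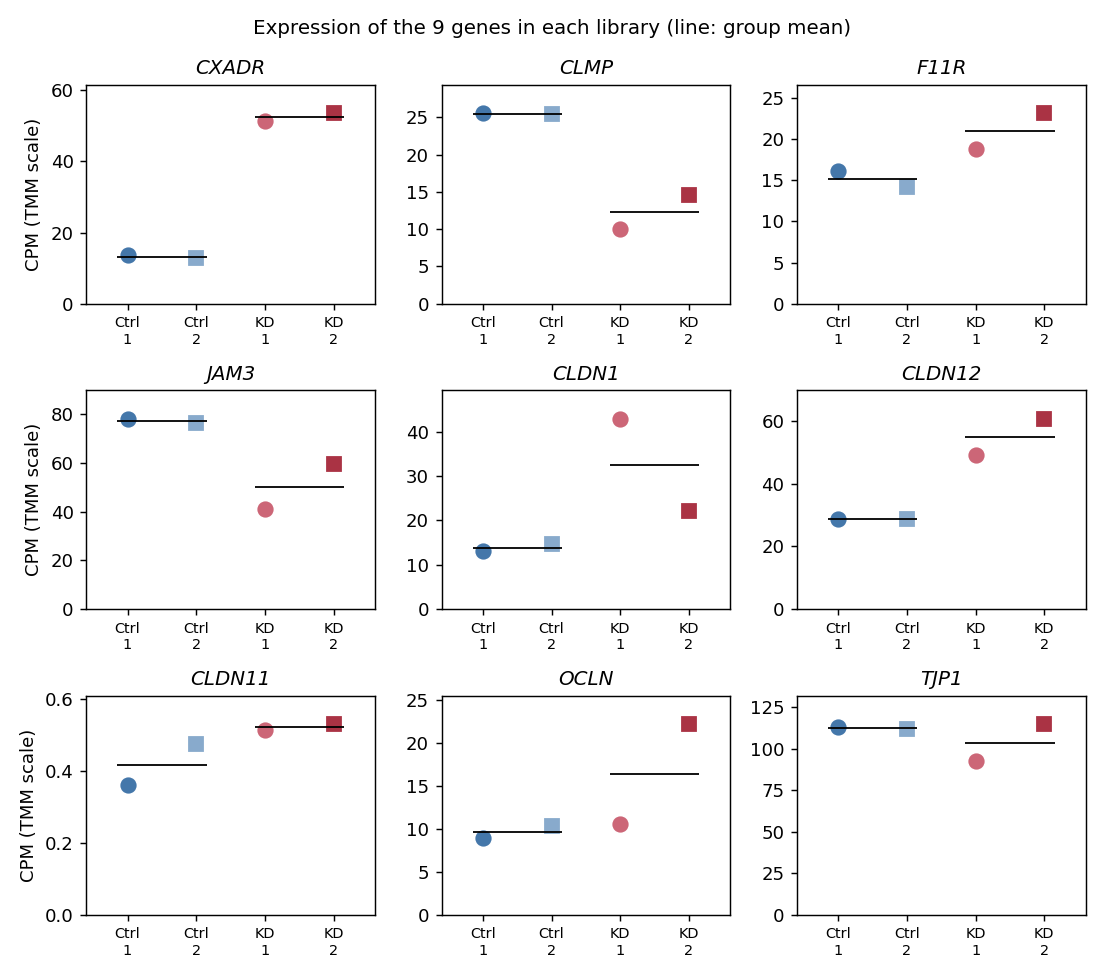
TMM-scaled CPM (vertical axis, starting at 0 with its own scale in each panel) of the 9 genes in the 2 Ctrl and 2 PRMT3-KD libraries, with lines at the group means. CXADR lies at 13.6 and 12.9 CPM in Ctrl and at 51.4 and 53.5 CPM in PRMT3-KD, while the PRMT3-KD libraries stand apart from each other for CLDN1 and OCLN.

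Genes were called as changed at an adjusted p under 0.05 and over 1.5-fold, which 10.9% of the 13172 genes passed (4.97% as higher and 5.97% as lower in PRMT3-KD). All 9 members passed the filter on low counts, and CLDN11 was the lowest, with 10 to 15 counts per library. Besides CXADR, whose call was fixed by its choice, 1 of the other 8 members passed as higher (CLDN12), 1 passed as lower (CLMP) and 6 did not pass. Their median log2 fold change was 0.39, against 0.0055 over all genes tested. The 2 Ctrl and 2 PRMT3-KD libraries did not overlap for 7 of these 8 members, TJP1 being the exception. Across all genes tested, 67.1% did not overlap, so this count is no result about the members. PRMT3-KD was the upper group for 5 of the 8, where 33.3% of all genes had this, and the lower group for 2, where 33.8% had it. These are RNA levels of a whole culture, in which fewer cells of a type and less RNA per cell cannot be told apart.

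Of the immunoglobulin-like receptors other than CXADR, CLMP passed and JAM3 and F11R did not. CLMP, the CAR-like membrane protein, which is needed for normal growth of the intestine, had 25.5, 25.4, 9.998 and 14.6 CPM in Ctrl 1, Ctrl 2, PRMT3-KD 1 and PRMT3-KD 2. Both PRMT3-KD libraries lay below both Ctrl libraries, so CLMP (ENSG00000166250, chr11:122940580-123065956, minus strand) fell while CXADR was high. Its log2 fold change was -1.05 (standard error 0.204, 95% interval -1.59 to -0.50, adjusted p = 0.0391, Benjamini-Hochberg, edgeR quasi-likelihood). Without Ctrl 1 or Ctrl 2 the adjusted p was 0.229 or 0.211 (edgeR), with log2 fold changes of -1.04 and -1.05. In every fit that leaves out a library, the lone library of a group is assumed to vary as the pair of the other group does.

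JAM3 (ENSG00000166086, chr11:133938966-134021896, plus strand), the most abundant member per length, had 77.9, 76.3, 40.9 and 59.5 CPM in the same order of libraries. The values were lower in both PRMT3-KD libraries, and more so in the first. The log2 fold change was -0.62 (standard error 0.193, 95% interval -1.13 to -0.10, adjusted p = 0.0943, edgeR), which did not pass, whereas DESeq2 gave an adjusted p of 0.0277. It was -0.92 without PRMT3-KD 2 and -0.37, under 1.5-fold, without PRMT3-KD 1 (edgeR). The spread in these 2 fits came from the Ctrl pair alone, so they cannot decide the call. Of the exon bases of JAM3, 35.6% overlap those of NCAPD3, a condensin subunit gene on the opposite strand, and the strand setting of the counting is not given in the sources used here. NCAPD3 had 2946, 2948, 2085 and 1836 counts, also fewer in the PRMT3-KD libraries, so reads of the overlap cannot be told apart.

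F11R (ENSG00000158769, chr1:160965001-160991133, minus strand), the other JAM receptor, had 16.1, 14.3, 18.8 and 23.1 CPM. The PRMT3-KD values were the higher ones, by 1.24 and 1.52 times the Ctrl mean. Its log2 fold change of 0.47 (standard error 0.149, 95% interval 0.07 to 0.86) had an adjusted p of 0.0984 (edgeR) and did not pass. Without PRMT3-KD 1 it was 0.61 and without PRMT3-KD 2 it was 0.31 (edgeR), the latter under 1.5-fold. The spread in these fits came from the Ctrl pair alone, so they cannot decide the call. Of its exon bases, 36.6% are shared with an overlapping gene model on the same strand, ENSG00000270149, which was not listed.

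Among the claudins, CLDN12 and CLDN1 had the larger differences. CLDN12 (ENSG00000157224, chr7:90013035-90142716, plus strand), a claudin known for paracellular calcium passage in the intestine, had 28.7 CPM in both Ctrl libraries and 49.2 and 60.5 CPM in the PRMT3-KD libraries. Both PRMT3-KD values were well above the Ctrl values, and CLDN12 rose with a log2 fold change of 0.94 (standard error 0.127, 95% interval 0.60 to 1.28, adjusted p = 0.0221, edgeR). Without Ctrl 1 or Ctrl 2 its adjusted p was 0.199 or 0.188 (edgeR), with log2 fold changes of 0.93 and 0.94. Exons of GTPBP10 and CDK14 on the same strand overlap 5.17% and 2.996% of its exon bases. Those of PTTG1IP2 (7.92%) and ENSG00000273299 (5.53%), on the same strand too, also overlap it and were not listed. GTPBP10 had 775, 748, 754 and 765 counts and CDK14 had 1769, 1725, 1599 and 1509 counts, and the part of this overlap in the CLDN12 counts was not tested.

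CLDN1 (ENSG00000163347, chr3:190023496-190040235, minus strand), the barrier claudin of the epidermis and the liver, had 13.0, 14.6, 42.9 and 22.2 CPM. Both PRMT3-KD libraries were above Ctrl, but by 3.10 times the Ctrl mean in the first and 1.61 times in the second. The log2 fold change of 1.23 had a standard error of 0.340 (95% interval 0.33 to 2.14) and an adjusted p of 0.0735 (edgeR), so it did not pass. The call turned with the test, since the adjusted p was 0.00098 with DESeq2. The size of the difference depended on the library, with log2 fold changes of 0.69 without PRMT3-KD 1 and 1.63 without PRMT3-KD 2 (edgeR). The spread in these fits came from the Ctrl pair alone, so they cannot decide the call. CLDN11 (ENSG00000013297, chr3:170136656-170172521, plus strand) had 10, 13, 13 and 15 counts. Its log2 fold change of 0.32 (95% interval -0.63 to 1.26, adjusted p = 0.571, edgeR) did not pass. The interval holds 0 and also changes over 1.5-fold in either direction. Of its exon bases, 15.8% are shared with ENSG00000285218 on the same strand, which was not listed.

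**Figure D2:**
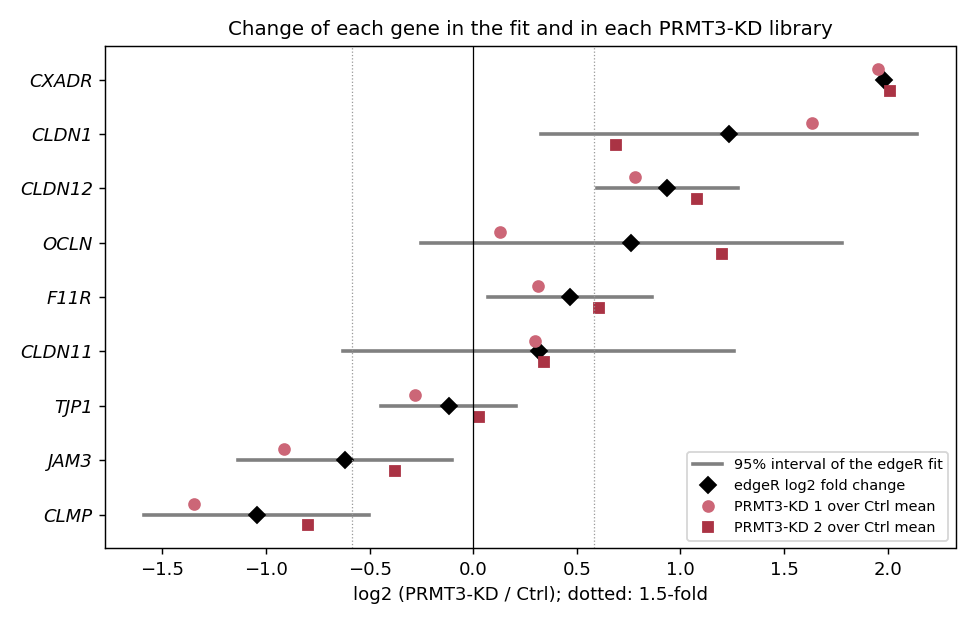
Log2 ratio of PRMT3-KD to Ctrl (horizontal axis) for each gene, with the edgeR value (diamond), its 95% interval (grey bar, not drawn for CXADR, which was chosen for its change) and each PRMT3-KD library over the Ctrl mean (circle and square). Of the genes with an interval, CLMP lies below 0 and CLDN12 above 0 in both libraries and past the threshold, and the intervals of OCLN, CLDN11 and TJP1 cross 0.

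OCLN (ENSG00000197822, chr5:68788119-68853931, plus strand), the tetraspan strand protein occludin, had 8.95, 10.4, 10.5 and 22.2 CPM. PRMT3-KD 1 was next to the Ctrl libraries and PRMT3-KD 2 was 2.30 times the Ctrl mean. The log2 fold change of 0.76 (standard error 0.381, 95% interval -0.25 to 1.78, adjusted p = 0.223, edgeR) did not pass. It rested on PRMT3-KD 2, with 1.20 without PRMT3-KD 1 and 0.12 without PRMT3-KD 2 (edgeR). The pseudogene OCLNP1 matches 43.2% of the coding bases of OCLN at 99.7% identity and was not listed. The match covers 676 bases, where OCLN has 11259 annotated exon bases, so part of the OCLN counts is uncertain. PRMT3-KD 2 was also the library with the high CDH5 count. The other endothelial markers tested, KDR and VWF, had 556, 612, 340 and 284 and 65, 57, 30 and 70 counts in Ctrl 1, Ctrl 2, PRMT3-KD 1 and PRMT3-KD 2. KDR was thus lowest in PRMT3-KD 2, and any link of these markers to OCLN was not tested. TJP1 (ENSG00000104067, chr15:29991571-30261118, minus strand), the scaffold ZO-1, had 113, 112, 92.8 and 115 CPM. Its groups overlapped, and the log2 fold change was -0.12 (standard error 0.122, 95% interval -0.44 to 0.21, adjusted p = 0.529, edgeR), an interval that leaves out a change of 1.5-fold in either direction. Without PRMT3-KD 1 the value was 0.029, and without PRMT3-KD 2 it was -0.28 (edgeR), under 1.5-fold.

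Levels of different genes were compared as CPM per kb of annotated exon, a scale on which genes with many rarely used exons read low. Exon overlaps with other genes, such as those of JAM3 (35.6% of its exon bases) and F11R (36.6%), were not corrected for. In Ctrl, JAM3 was highest at 14.7 and 14.4 CPM per kb, above TJP1 at 10.02 and 9.88, CLMP at 5.05 and 5.03 and CLDN12 at 4.27 and 4.28. CLDN1 (3.59 and 4.03), F11R (3.18 and 2.82) and CXADR (2.26 and 2.15) followed, then OCLN (0.795 and 0.920) and CLDN11 (0.0835 and 0.109). No neighbours in this Ctrl order overlapped in their 2 libraries. Among all genes tested, JAM3 stood at percentile 77.6, CXADR at 31.5, OCLN at 18.5 and CLDN11 at 3.30 of the Ctrl level per kb. In PRMT3-KD the upper part of the order closed up. JAM3 (7.72 and 11.2), TJP1 (8.20 and 10.1), CLDN1 (11.8 and 6.13), CXADR (8.54 and 8.88) and CLDN12 (7.34 and 9.03) overlapped with each other there, and CLMP (1.98 and 2.90) lay below F11R (3.72 and 4.57). CXADR made up 5.14% and 4.93% of the summed CPM per kb of the 9 members in Ctrl and 17.0% and 16.2% in PRMT3-KD libraries, which follows from its choice. The sum of the other 8 members was 41.7 and 41.4 CPM per kb in Ctrl and 41.8 and 46.1 in PRMT3-KD.

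**Figure D3:**
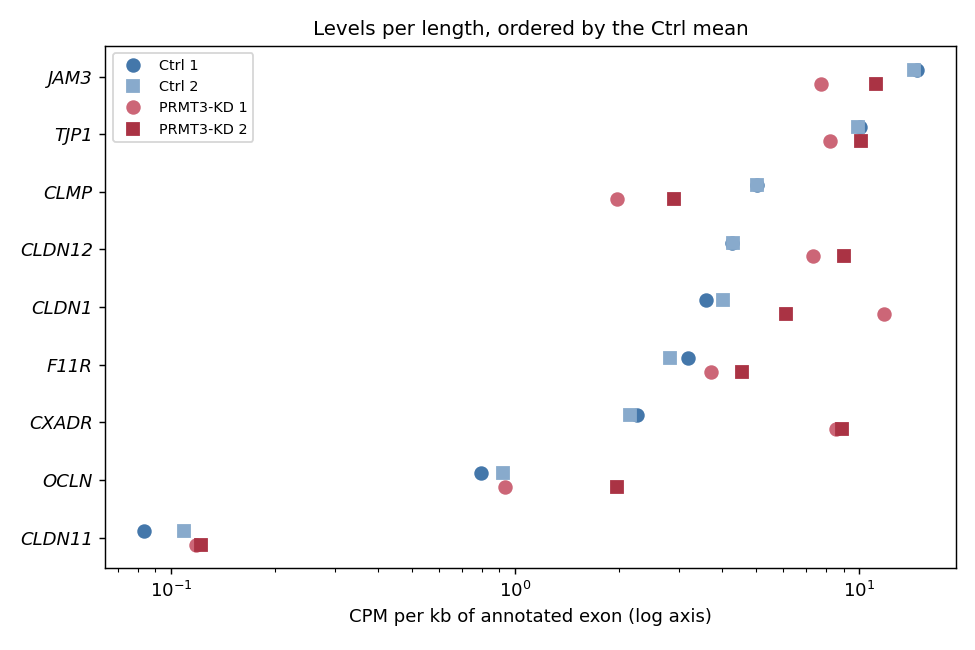
Level of each gene in each library as CPM per kb of annotated exon (horizontal log axis), genes ordered by their Ctrl mean. CXADR is seventh of the genes in Ctrl (2.26 and 2.15) and lies among JAM3, TJP1, CLDN1 and CLDN12 in PRMT3-KD (8.54 and 8.88).

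The 5 genes whose pattern was most like that of CXADR were named by the root mean square difference, over the 4 libraries, of log2 CPM taken relative to the Ctrl mean. They were DYSF (0.033), YOD1 (0.063), GRAMD3 (0.079), FGF1 (0.083) and IGFBP4 (0.093). YOD1 had 20.4, 20.1, 78.8 and 75.0 CPM, and FGF1, a fibroblast growth factor, had 6.39, 6.69, 24.1 and 28.5 CPM. DYSF had 4 counts in each Ctrl library and 20 and 23 in PRMT3-KD. Its place rests on the prior count of 2 used for log2 CPM, since its fitted log2 fold change was 2.43 against 1.98 for CXADR, whereas YOD1 had 1.92, FGF1 2.01 and IGFBP4 2.05. None of the members was among them.

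Of 88 other genes of junctions and their regulators, listed by role, 68 were in the table and 59 were tested. Of these, 4 passed as higher and 3 as lower, which is 11.9%, near the 10.9% of all genes, and their median log2 fold change was 0.13. Without Ctrl 1 or Ctrl 2, 0 of them passed in edgeR (8 and 6 had an unadjusted p under 0.05), as did 0 of all genes tested (1842 and 1868 with an unadjusted p under 0.05). Without PRMT3-KD 1 or PRMT3-KD 2, more of them passed than in the reported fit, as did more of all genes tested.

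Of 24 scaffold and polarity genes tested, 3 passed as higher and 0 as lower, where 4.97% and 5.97% of all genes did. MAGI1, a PDZ scaffold that is known to bind the tail of CXADR, had 20.2, 19.7, 49.6 and 56.7 CPM in Ctrl 1, Ctrl 2, PRMT3-KD 1 and PRMT3-KD 2. Both PRMT3-KD values were above both Ctrl values, and MAGI1 rose by 1.42 on the log2 scale (standard error 0.106, adjusted p = 0.0142, edgeR). MPP5 (PALS1), of the Crumbs polarity complex, and CGNL1 (paracingulin), a junction plaque protein, rose by 0.72 (adjusted p = 0.0188) and 0.66 (adjusted p = 0.0487) on the log2 scale (edgeR). MLLT4 (afadin), which links nectins to actin, had a log2 fold change of 0.51 (adjusted p = 0.0342, edgeR), under 1.5-fold.

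Of 20 further claudins, 7 were in the table and 3 were tested. CLDN15, known for cation passage in the intestine, was the 1 that passed, where 10.9% of all genes did. It fell from 10.1 and 11.8 CPM in Ctrl to 6.06 and 5.74 CPM in PRMT3-KD, which is -0.89 on the log2 scale (standard error 0.151, adjusted p = 0.0310, edgeR), opposite in sign to CLDN12. CLDN4 had 6.39, 5.38, 8.46 and 8.03 CPM (log2 fold change 0.49, adjusted p = 0.104, edgeR). The third JAM receptor, JAM2, had 4.94, 5.53, 2.32 and 4.15 CPM, with both PRMT3-KD values the lower ones (log2 fold change -0.69, adjusted p = 0.202, edgeR). Of the 3 JAM and CTX family receptors tested and the 1 MARVEL protein tested, 0 passed in edgeR. The same held for the 5 CXADR partners tested, a list that leaves out partners listed as scaffolds, such as MAGI1.

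Of 18 adherens junction genes, 1 passed, where 10.9% of all genes did. NECTIN2, an adhesion receptor and herpesvirus entry receptor, had 112, 115, 179 and 206 CPM, higher in PRMT3-KD by 0.76 on the log2 scale (standard error 0.0976, adjusted p = 0.0207, edgeR). CDH2 (N-cadherin), the main cadherin of neural cells, had a log2 fold change of 0.20 (adjusted p = 0.111, edgeR). CDH1 (E-cadherin) had 0 counts in both Ctrl libraries and 4 and 1 counts in PRMT3-KD, too few to test.

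**Figure D4:**
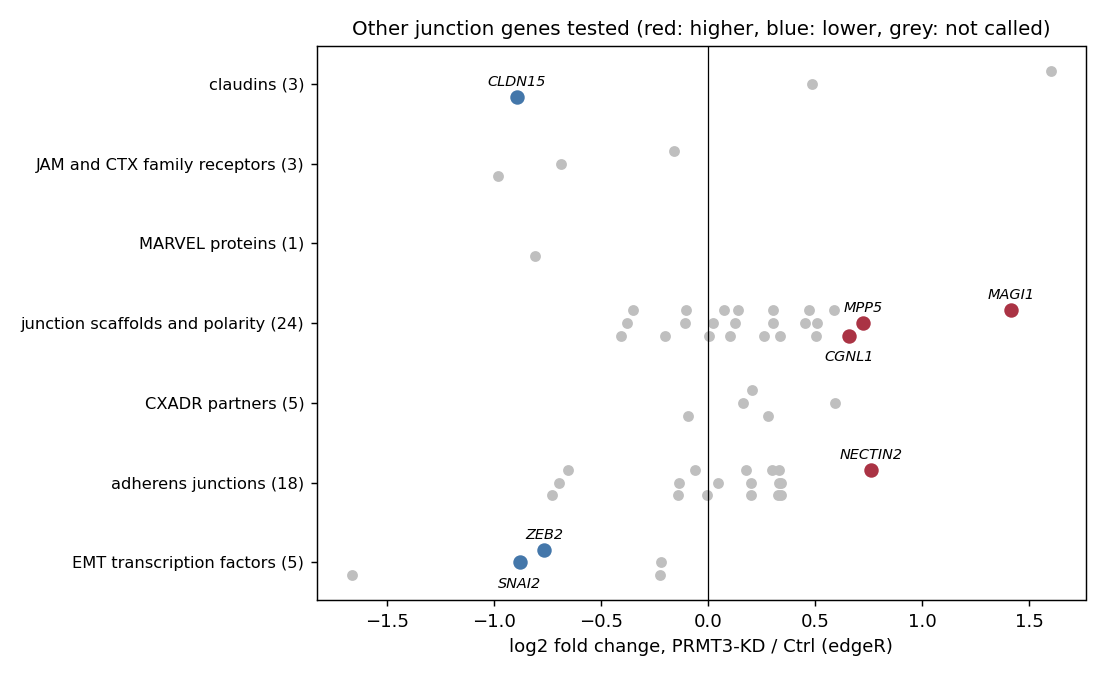
Log2 fold change between PRMT3-KD and Ctrl (horizontal axis, edgeR) of the 59 other junction genes tested, grouped by list with the number tested. The 4 genes past the threshold as higher are MAGI1, NECTIN2, MPP5 and CGNL1, and the 3 as lower are CLDN15, SNAI2 and ZEB2.

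The Snail, ZEB and TWIST factors of the epithelial-mesenchymal transition are known repressors of junction genes. Of 5 of them tested, 2 passed as lower, as did 5.97% of all genes, and 0 as higher. Both PRMT3-KD values were below both Ctrl values for all 5, as they were for 33.8% of all genes. SNAI2 had 55.1, 52.6, 25.3 and 33.1 CPM (log2 fold change -0.88, standard error 0.151, adjusted p = 0.0317, edgeR). ZEB2 had 74.3, 72.5, 39.6 and 46.8 CPM (log2 fold change -0.77, standard error 0.108, adjusted p = 0.0232, edgeR). SNAI1 had 35, 36, 3 and 19 counts, which gave an adjusted p of 0.161 (edgeR). Neither SNAI2 nor ZEB2 passed without Ctrl 1 or without Ctrl 2, where 0 genes did, and any part of these factors in the levels of the junction genes was not tested.

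The Snail and ZEB factors among them are known to bind the E-box CAGGTG, so promoters of the members were read for it on both strands (CACCTG on the other). RefSeq windows of 300 bases (250 before and 50 after a start, GRCh38.p14) were matched for 5 of the 9 members, with 10 windows in all, and CXADR, F11R, JAM3 and CLMP had no entry. The motif was in 3 of the 10 windows, both of OCLN and 1 of 4 of TJP1, and in 20.6% of all 35116 windows. Shown are the window of OCLN with 2 matches (chr5:69492540-69492839, plus strand), as the member promoter with the most, and that of CLDN12 (chr7:90403211-90403510, plus strand), the member that rose, with 0. Matches are in capitals, and a match is a description of the letters only.
OCLN: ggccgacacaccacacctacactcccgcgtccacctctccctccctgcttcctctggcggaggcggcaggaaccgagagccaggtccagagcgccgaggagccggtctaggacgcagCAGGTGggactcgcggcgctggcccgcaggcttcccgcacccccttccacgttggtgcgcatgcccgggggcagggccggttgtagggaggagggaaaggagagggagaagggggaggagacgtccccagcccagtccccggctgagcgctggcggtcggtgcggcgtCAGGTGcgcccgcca
CLDN12: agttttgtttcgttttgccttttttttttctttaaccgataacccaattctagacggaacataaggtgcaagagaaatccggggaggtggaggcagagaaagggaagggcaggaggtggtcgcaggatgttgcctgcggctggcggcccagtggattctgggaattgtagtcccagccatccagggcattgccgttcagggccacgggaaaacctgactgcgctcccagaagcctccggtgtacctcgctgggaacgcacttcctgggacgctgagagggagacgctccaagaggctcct
The single window of CLDN1 and both of CLDN11 also had 0 matches. OCLN and TJP1, the members with matches, did not pass the test in the comparison of PRMT3-KD with Ctrl. Of the members read without a match, CLDN12 passed and CLDN1 and CLDN11 did not. Any link between matches and changes was not tested.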

How the data were processed

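RNA-seq of 2 Ctrl and 2 PRMT3-KD U251 libraries was used. Per the study's methods, reads were aligned to hg19 with TopHat and unnormalized gene counts were made with Cufflinks, and the submitters' processing notes also name CASAVA and DESeq2. The authors deposited whole-number counts per gene, 1 column per library. Versions, annotation and strandedness are not given in the sources used here. Of 15576 entries, 1 duplicate was removed.

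Counts were tested in R 4.3.3 with edgeR 4.0.16 (filterByExpr with minimum count 10 and minimum total 15, TMM, glmQLFit, glmQLFTest, Benjamini-Hochberg over 13172 genes). Changed genes had an adjusted p under 0.05 and over 1.5-fold. Standard errors and 95% intervals were derived from the quasi-likelihood F value. CPM are on the TMM scale, and log2 CPM used a prior count of 2. The test was tried on simulated data. Totals were 24804250 to 29756313 counts, and genes of few counts such as CLDN11 have wide intervals. An exact permutation test of 2 against 2 libraries was not used, since it cannot reach 0.05.

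Genes named are the 9 members, PRMT3, every other listed junction gene past the threshold (with JAM2 and the CXADR pseudogenes), and the 5 genes most like CXADR. Other genes named (markers such as CDH5 and GFAP, CDH1, CDH2, CLDN4, MLLT4, SNAI1 and overlapping genes) were chosen after their values were seen. The members and lists were chosen with earlier results of these data known. Alternatives were DESeq2 1.42.0, other scalings, filter and fold threshold, the replicate number as a block, and each library left out. Identifiers were matched to GENCODE 44 on GRCh37 (99.9% of genes), with Python 3.11.15 and Biopython 1.88 for sequences. Some items are not reported here.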

Additional observations from a re-analysis of the deposited data

How the results depend on the processing

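CXADR kept its direction under every alternative run. Its log2 fold changes were 1.95 to 1.99 over tests, scalings, filter and block and 1.95 to 2.02 with a library left out. Since CXADR was picked for its rise, its place in the member counts that follow was fixed by its choice. Leaving CXADR out, 2 members passed in the reported fit and 4 with DESeq2. Over all genes, DESeq2 called 1838 of 12857, against 1441 of 13172 in the reported fit. Members past the threshold, CXADR included, were 3 of 9 in the reported fit, 5 with DESeq2 (CLDN1 and JAM3 added; CLDN11 had no adjusted p) and 0 to 6 with each library left out. Genes past it were 1441, 2278 with no fold threshold, and 0 to 3066 with each library left out, and other junction genes 7, and 0 to 17. The counts of 0 are those without Ctrl 1 or Ctrl 2, where a group of 1 library is assumed to vary as the PRMT3-KD pair does, and 1842 and 1868 genes had an unadjusted p under 0.05 in edgeR. With a library left out, TJP1 ranged from -0.28 to 0.029, reversed without PRMT3-KD 1, and the cause was not tested. Upper-quartile scaling, library totals only and the absence of a filter left CLDN12 and CLMP past the threshold and added no member.

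The libraries share replicate numbers, but the labels tie the numbers to no culture or batch. Across genes, the differences between replicates 1 and 2 in Ctrl and in PRMT3-KD had a correlation of 0.038. With the replicate block, 1464 genes, 3 members other than CXADR and 7 other junction genes passed. The added member was CLDN1 (log2 fold change 1.17, adjusted p = 0.0485, edgeR). Depth limits CLDN11 and the untested claudins.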
